A study of Mus musculus with 8 samples.

Results

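Collagen chains are the 43 genes, of 24421 in the table, whose symbol is Col with a type number, the letter a and a chain number. Col17a1 was left out by the rule that set the group. By the assembly that each chain is known to form, they fall into 11 fibrillar chains, 6 basement membrane chains of type IV, 6 microfibril chains of type VI and 20 other chains. The last of these are the FACIT chains (fibril-associated collagens with interrupted triple helices), the anchoring fibril, short-chain network, multiplexin and transmembrane chains, and a pair that fits no class.

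A collagen molecule is a triple helix of α chains, each chain the product of its own gene. Fibrillar collagens make the load-bearing fibrils of the dermis, type IV makes the sheet under epidermis, vessels and nerves, and type VI makes beaded filaments around cells. FACIT chains sit on fibril surfaces, and type VII anchors the epidermal basement membrane to the dermis. Fibroblasts make most dermal collagen, and keratinocytes, endothelial cells and Schwann cells add basement membrane chains.

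RNA was sequenced from sorted back skin cells of 4 C57BL/6J mice that all carried ROSA mTmG and Tyr:CreERT2 and all received tamoxifen, once a day for 10 days from postnatal day 21. Such a cell carries membrane tdTomato unless Cre has recombined the reporter, and membrane EGFP once it has. Tyrosinase regulatory sequence directs Cre to the melanocyte lineage, and a melanocyte in which Cre did not act stays in the tdTomato+ sort. Recombination in other cells was not tested. All mice were depilated on day 50 and skin was taken on day 54. Mice 3 and 4 received UVB at 150 mJ/cm2 for 3 days and mice 1 and 2 were mock treated. Each mouse gave 1 EGFP+ and 1 tdTomato+ library, which makes 4 groups of 2: EGFP with UV, EGFP without UV, tdTomato with UV and tdTomato without UV. In every group replicate 1 is the lower mouse number.

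The libraries held 11186363 to 16711981 reads. Values below are normalized reads, the reads of a gene divided by the size factor of its library. The sorts matched their labels by marker genes: 5 of 5 melanocyte markers rose in EGFP+ cells, and 5 of 5 keratinocyte, 6 of 8 fibroblast, 3 of 5 endothelial, 5 of 6 mural and 3 of 4 leukocyte markers fell (limma adjusted p under 0.05). Of all 18070 genes tested, 9.66% were higher and 19.2% lower in that comparison. The 8 fibroblast markers, none of them a collagen, summed to 63.6 to 293 normalized reads in EGFP libraries and 10192 to 13861 in tdTomato libraries. EGFP with UV replicate 2 stood apart, with 11186 genes detected against 14503 or more in the other 7 libraries and 33 of the 43 chains at 0 reads. Elsewhere 3 to 20 chains were at 0.

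Collagen reads of EGFP+ cells were concentrated in 2 chains. Reads were found for 23 and 10 of the 43 chains in EGFP with UV, 31 and 40 in EGFP without UV, 34 and 32 in tdTomato with UV, and 36 and 36 in tdTomato without UV, so the number of chains detected was not lower in every EGFP library. Col12a1 and Col16a1, both FACIT chains, made up 84.8% and 85.6% of all collagen reads in EGFP with UV, 68.7% and 73.9% in EGFP without UV, 10.1% and 20.5% in tdTomato with UV, and 2.97% and 2.33% in tdTomato without UV. Per kilobase of transcript, Col16a1 and Col12a1 ranked first and second in EGFP+ cells, at 180.3 and 150.2 normalized reads per kb. In tdTomato+ cells the leading chains per kb were Col1a2 at 252, Col3a1 at 136 and Col1a1 at 129.998. In these bulk samples, fewer cells of a type and less RNA per cell cannot be told apart.

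Summed levels differed by class. Fibrillar chains summed to 355 ± 125 normalized reads in EGFP+ cells and 3380 ± 2882 in tdTomato+ cells (SD, n = 4 each), basement membrane chains to 88.4 ± 106 and 943 ± 347, and microfibril chains to 145 ± 101 and 821 ± 362. None of these 3 sums overlapped between EGFP and tdTomato libraries, and each was lower in EGFP. The other chains went the opposite way, at 2843 ± 91.7 in EGFP+ cells and 1786 ± 321 in tdTomato+ cells. That direction rests on Col12a1, since without it the log2 ratio of the class was -0.40 in place of 0.67. SDs over 4 libraries, here and below, span libraries with and without UV. In tdTomato+ cells fibrillar chains summed to 911 ± 164 with UV and 5848 ± 717 without (SD, n = 2 each).

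**Figure D1:**
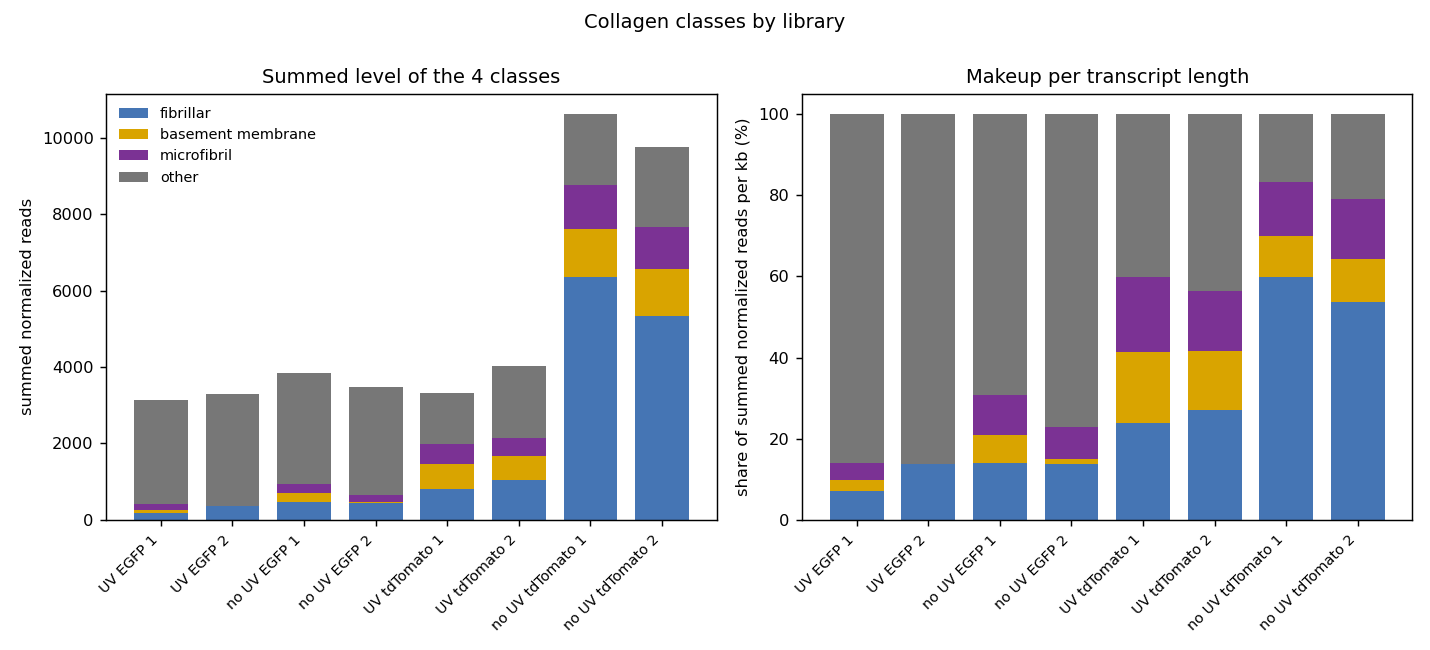
Stacked bars give, for each library, the summed normalized reads of the 4 collagen classes (left) and the share of each class after division by transcript length (right, percent). The other chains, in grey, hold 69.2% or more of the per-kb sum in EGFP libraries and 43.6% or less in tdTomato libraries, and fibrillar chains hold 53.6% and 59.9% in tdTomato libraries without UV.

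Of the 43 chains, 42 passed the filter of a mean of at least 1 normalized read in a group, and Col6a6, with 3 reads in all, did not. In EGFP+ against tdTomato+ cells over all mice, 2 chains were higher and 16 lower by limma, where 9.66% of all 18070 genes tested were higher and 19.2% lower (28.9% in either direction). The difference was below 0 for 35 of the 42, with a median of -1.75 on the log2 scale, beside -0.33 over all genes tested. It was -2.05 with chains at 0 reads on one side set to their bound. Libraries did not overlap for 17 chains lower and 3 higher in EGFP, against 18% and 9.8% of all genes tested. Quantile normalization moved the median of all genes by 0.45 log2 units and rescaling without the 20 most abundant genes by 0.21, and the share of called genes that were higher went to 51.7% and 47.8% in place of 33.5%. The chains split 4 higher to 15 lower and 4 to 16 under those scalings. With mouse as a block, 3 chains were higher and 18 lower, as many as by edgeR and by DESeq2, where 28% and 31.5% of all genes tested were called in either direction.

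**Figure D2:**
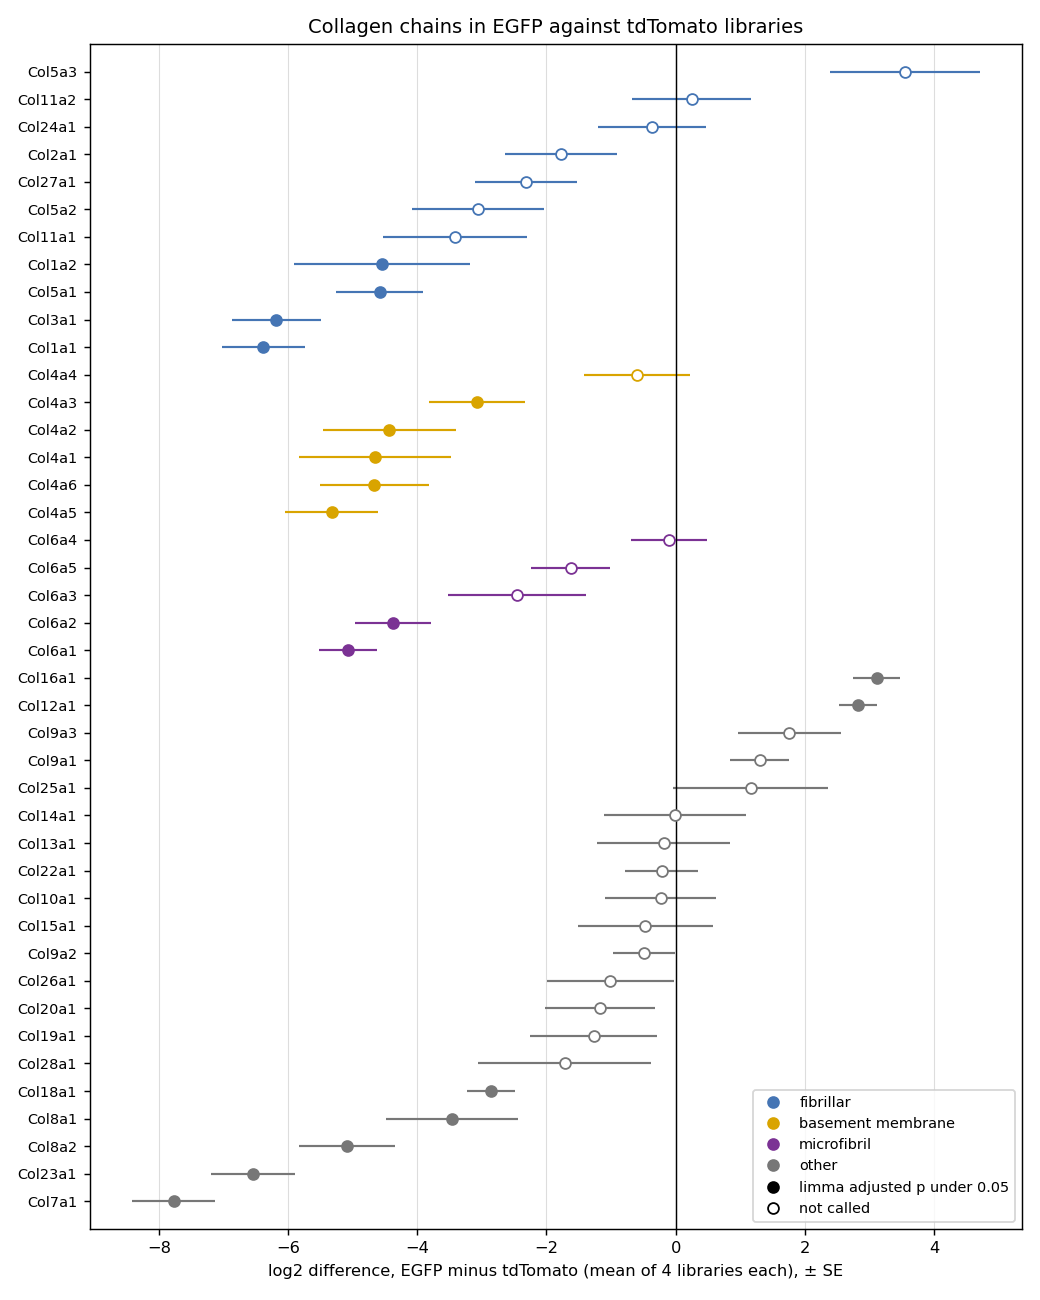
Log2 difference between EGFP and tdTomato libraries (4 each, mean ± SE from limma) for the 42 tested chains, coloured by class, with filled points at adjusted p under 0.05. Col16a1 at 3.11 and Col12a1 at 2.82 are the filled points right of 0, and the 16 filled points left of 0 come from all 4 classes.

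Among the 11 fibrillar chains, 4 were lower in EGFP+ cells, 0 were higher, and the median difference was -3.06. Of all genes tested, 19.2% were lower and 9.66% higher, with a median of -0.33. Type I collagen, the main fibre of dermis, is built from the chains of Col1a1 and Col1a2. Col1a1 (chromosome 11, 94936224 to 94953042, plus strand, mm10) had 0.839 and 1.08 normalized reads in EGFP with UV, 20.8 and 3.80 in EGFP without UV, 87.0 and 104 in tdTomato with UV, and 1418 and 1474 in tdTomato without UV. Every EGFP library lay under every tdTomato library, and the log2 difference was -6.38 ± 0.64 (SE, limma adjusted p = 0.000176).

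Col1a2 (chromosome 6, 4504814 to 4541544, plus strand) had 0 and 186 normalized reads in EGFP with UV, 68.2 and 83.7 in EGFP without UV, 139 and 400 in tdTomato with UV, and 2342 and 2515 in tdTomato without UV. EGFP with UV replicate 2 was above tdTomato with UV replicate 1, so the groups overlapped. The chain fell by 4.55 ± 1.36 on the log2 scale (adjusted p = 0.0361, limma). The adjusted p ran from 0.156 to 0.218 without any 1 of the 6 libraries other than EGFP with UV. Per kb, Col1a1 stood at 0.234 to 0.564 of Col1a2 in the 4 tdTomato libraries.

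Col3a1 encodes type III collagen, which shares thin dermal fibrils with type I. Upstream of it (plus strand, chr1:45311288-45311537, RefSeq, GRCm38.p6) the window before the transcript start is shown because it holds the matches to 2 of the motifs searched, in capitals: TATAAA and CACATG.
Col3a1: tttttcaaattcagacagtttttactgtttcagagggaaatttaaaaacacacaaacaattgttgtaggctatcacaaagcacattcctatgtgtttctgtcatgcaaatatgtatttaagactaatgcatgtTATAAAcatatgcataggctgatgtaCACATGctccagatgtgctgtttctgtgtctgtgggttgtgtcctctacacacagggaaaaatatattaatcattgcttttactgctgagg
The gene had 1.68 and 0 normalized reads in EGFP with UV, 70.7 and 15.2 in EGFP without UV, 313 and 247 in tdTomato with UV, and 1870.1 and 592 in tdTomato without UV. The groups did not overlap, and Col3a1 was lower in EGFP+ cells by 34.5-fold in mean (log2 difference -6.18 ± 0.68, limma adjusted p = 0.000286).

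Type V collagen starts and limits fibril growth. Col5a2 had 42.8 and 0 normalized reads in EGFP with UV, 123 and 163 in EGFP without UV, 166 and 179 in tdTomato with UV, and 337 and 422 in tdTomato without UV. The groups did not overlap, yet at -3.06 ± 1.02 log2 units Col5a2 did not pass (limma adjusted p = 0.0536), and it passed with mouse as a block (adjusted p = 0.0340). It passed in 5 of the 9 alternative settings that kept all libraries, and in the rest its limma adjusted p ran up to 0.123. The other type V chains, Col5a1 and Col5a3, were named after their values were seen. Col5a1 was lower in EGFP+ cells, at 6.00 ± 6.38 against 125 ± 89.9 in tdTomato+ cells (SD, n = 4 each, limma adjusted p = 0.00128).

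Col5a3 had 128 and 174 normalized reads in EGFP with UV, 143 and 123 in EGFP without UV, 17.4 and 16.7 in tdTomato with UV, and 64.6 and 0 in tdTomato without UV. All 4 EGFP libraries were above all 4 tdTomato libraries, at 5.75-fold in mean. The log2 difference of 3.55 ± 1.16 missed the threshold (limma adjusted p = 0.0513), and it passed with mouse as a block (adjusted p = 0.0332), under edgeR (adjusted p = 0.0363) and under DESeq2 (adjusted p = 0.0132). It passed in 6 of the 9 alternative settings that kept all libraries, and in the rest its limma adjusted p ran up to 0.111. Among fibrillar chains, Col5a3 was the one chain with every EGFP library above every tdTomato library.

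All 6 basement membrane chains had differences below 0, and 5 were lower by limma, Col4a1, Col4a2, Col4a3, Col4a5 and Col4a6. Over all genes tested, 62.5% had differences below 0 and 19.2% were called lower. The median of the 6 was -4.54. Type IV genes lie head to head in pairs. Col4a1 and Col4a2 (chromosome 8) overlap by 22 bases at their starts, Col4a3 and Col4a4 (chromosome 1) are 71 bases apart, and Col4a5 and Col4a6 (chromosome X) are 1308 bases apart.

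Col4a1 and Col4a2 encode the chains of the network found in nearly every basement membrane. Col4a1 had 27.7 and 0 normalized reads in EGFP with UV, 159 and 7.61 in EGFP without UV, 315 and 288 in tdTomato with UV, and 452 and 384 in tdTomato without UV. Col4a2 had 29.4 and 0, 60.7 and 13.3, 259 and 240.2, and 322 and 287 in the same order of groups. Both were lower in every EGFP library than in any tdTomato library, but EGFP without UV replicate 1 still held 159 and 60.7. Both were at 0 in EGFP with UV replicate 2, and neither was called lower when the libraries without UV were compared. In tdTomato libraries Col4a1 stood at 1.17 to 1.37 times Col4a2 per kb.

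The log2 differences were -4.66 ± 1.18 for Col4a1 (limma adjusted p = 0.0184) and -4.43 ± 1.03 for Col4a2 (adjusted p = 0.0122). Col4a1 lost its call without EGFP without UV replicate 2 or any 1 tdTomato library (limma adjusted p up to 0.148), and Col4a2 without any 1 of the libraries other than those of EGFP with UV (up to 0.118). Reads in the 22 shared bases cannot be told apart by a kit that does not mark strand.

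Col4a5 and Col4a6 form a network that skin keeps in the epidermal basement membrane. Their upstream windows are shown because the genes face away from each other and both were lower in EGFP+ cells (RefSeq, GRCm38.p6, Col4a5 plus strand, chrX:141475169-141475384, and Col4a6 minus strand, chrX:141474077-141474326; a match to CCAAT is in capitals in Col4a5, and no searched motif lies in the stretch of Col4a6).
Col4a5: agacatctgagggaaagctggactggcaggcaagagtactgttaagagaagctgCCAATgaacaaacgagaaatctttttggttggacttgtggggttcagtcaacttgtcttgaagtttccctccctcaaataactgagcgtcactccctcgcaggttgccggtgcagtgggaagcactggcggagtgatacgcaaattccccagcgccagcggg
Col4a6: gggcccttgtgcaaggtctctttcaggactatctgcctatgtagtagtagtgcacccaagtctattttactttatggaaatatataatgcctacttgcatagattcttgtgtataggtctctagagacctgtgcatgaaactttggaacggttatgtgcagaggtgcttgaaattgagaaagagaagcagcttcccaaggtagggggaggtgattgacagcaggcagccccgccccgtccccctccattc
Col4a5 had 0 and 0 normalized reads in EGFP with UV, 3.33 and 4.75 in EGFP without UV, 27.5 and 36.2 in tdTomato with UV, and 162 and 371 in tdTomato without UV. Col4a6 had 5.03 and 0, 1.66 and 4.75, 33.9 and 31.5, and 253 and 131 in the same order.

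For both genes the groups were far apart, and tdTomato libraries without UV were above those with UV. Col4a5 was lower by 73.9-fold in mean (log2 difference -5.33 ± 0.72, limma adjusted p = 0.000822) and Col4a6 by 39.3-fold (-4.66 ± 0.85, adjusted p = 0.00376). Mouse 1 was the one with Xist, made from an inactive X chromosome, at 477 reads in its EGFP library and 1103 in its tdTomato library, while 4 was the highest count elsewhere. The part of that difference between mice in the values of these X-linked genes was not tested.

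Of 6 microfibril chains, 5 were tested and 2 of them, Col6a1 and Col6a2, were lower in EGFP+ cells, with 0 higher and a median of -2.46. Beside them, 19.2% of all genes tested were lower and 9.66% higher. Type VI filaments need the chain of Col6a1, that of Col6a2 and 1 more chain, usually that of Col6a3. Col6a1 (chromosome 10, 76708792 to 76726168, minus strand) had 0.839 and 0 normalized reads in EGFP with UV, 99.8 and 104 in EGFP without UV, 238 and 224 in tdTomato with UV, and 655 and 705 in tdTomato without UV. Its 4 groups stood in steps with no overlap between neighbours. The log2 difference between EGFP+ and tdTomato+ cells was -5.07 ± 0.44 (limma adjusted p = 8.72e-05).

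Col6a2 lies 85.2 kb from Col6a1 on the same strand. It had 0 and 0 normalized reads in EGFP with UV, 90.7 and 38.0 in EGFP without UV, 99.9 and 94.6 in tdTomato with UV, and 239 and 284 in tdTomato without UV. The EGFP libraries without UV came close to the tdTomato libraries with UV but did not overlap them. The log2 difference was -4.37 ± 0.59 (limma adjusted p = 0.000790). Per kb, Col6a1 was at 2.29 to 2.64 times Col6a2 in the tdTomato libraries.

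Col6a3 was not called over all mice, and a difference between it and Col6a1 or Col6a2 was not tested. It had 153 and 2.16 normalized reads in EGFP with UV, 48.2 and 40.9 in EGFP without UV, 191 and 162 in tdTomato with UV, and 262 and 109.9 in tdTomato without UV. The EGFP libraries other than EGFP with UV replicate 1 lay under every tdTomato library. EGFP with UV replicate 1 lay inside the tdTomato range, and the log2 difference of -2.46 ± 1.07 did not pass (limma adjusted p = 0.125). Without that library it was called, in a fit that left EGFP with UV replicate 2, the library with the fewest genes detected, alone in its group. Col6a5, which can take the place of Col6a3, had 1 read in EGFP libraries and 11 in tdTomato libraries and did not pass (adjusted p = 0.0821).

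Among the 20 other chains, 2 were higher and 5 lower in EGFP+ cells, shares near the 9.66% and 19.2% of all genes tested. Col12a1, which bridges fibrils under mechanical load, had 1772 and 1589.7 normalized reads in EGFP with UV, 2006 and 1549 in EGFP without UV, 288 and 691 in tdTomato with UV, and 159 and 108 in tdTomato without UV. All 4 EGFP libraries were above all 4 tdTomato libraries. The log2 difference was 2.82 ± 0.30 (limma adjusted p = 0.000217), and Col12a1 (chromosome 9, 79598991 to 79718831, minus strand) was 5.55-fold higher in mean.

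Col16a1 associates with thin fibrils and with basement membrane zones. A stretch of its upstream window that no annotated exon covers is shown because the chain was higher in EGFP+ cells (RefSeq, GRCm38.p6, plus strand, chr4:130047590-130047661). No searched motif lies in these 72 bases, which are the end of the window farthest from the transcript start. The rest of the 250 bases is not shown, and it holds a match to CCAAT.
Col16a1: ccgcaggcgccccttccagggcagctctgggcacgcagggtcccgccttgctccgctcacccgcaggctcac
Col16a1 had 882 and 1225 normalized reads in EGFP with UV, 634 and 1014 in EGFP without UV, 48.6 and 134 in tdTomato with UV, and 156 and 118 in tdTomato without UV. The groups were far apart, and in mean Col16a1 was 8.23-fold higher in EGFP+ cells (log2 difference 3.11 ± 0.36, limma adjusted p = 0.000375).

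Type VII collagen, the anchoring fibril made by keratinocytes and fibroblasts, was at the opposite end. Its upstream window is shown because Col7a1 had the lowest difference of the 42 (RefSeq, GRCm38.p6, plus strand, chr9:108953336-108953585; ATTGG, the other strand of CCAAT, in capitals).
Col7a1: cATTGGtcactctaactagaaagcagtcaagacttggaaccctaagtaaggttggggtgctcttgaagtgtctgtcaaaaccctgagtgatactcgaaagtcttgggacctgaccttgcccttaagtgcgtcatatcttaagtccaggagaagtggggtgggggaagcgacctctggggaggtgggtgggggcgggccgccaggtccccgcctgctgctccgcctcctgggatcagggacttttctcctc
Col7a1 had 0 and 0 normalized reads in EGFP with UV, 0.832 and 0.951 in EGFP without UV, 148 and 209 in tdTomato with UV, and 463 and 558 in tdTomato without UV. With 2 reads in EGFP libraries and 1251 in tdTomato libraries, it was 703-fold lower in EGFP+ cells (95% exact interval 194 to 5810, counting error only), and limma gave -7.77 ± 0.65 (adjusted p = 6.86e-05).

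Col18a1, a multiplexin of basement membranes and the source of endostatin, was lower without being near 0. It had 31.0 and 89.5 normalized reads in EGFP with UV, 107 and 153 in EGFP without UV, 549 and 605 in tdTomato with UV, and 567 and 705 in tdTomato without UV. The tdTomato groups overlapped each other and lay above all EGFP libraries, with a log2 difference of -2.86 ± 0.37 (limma adjusted p = 0.000663). The other 3 lower chains of this class were named after their values were seen. They are the transmembrane chain Col23a1 at -6.54 ± 0.65 (limma adjusted p = 0.000164), Col8a2 at -5.09 ± 0.75 (adjusted p = 0.00130) and Col8a1, both of the short-chain network.

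The other 13 chains of the class did not pass, and their means ran from 0 to 27.4 normalized reads in EGFP+ cells and from 0 to 42.4 in tdTomato+ cells. Of the 18 chains called over all mice, 13 were called in all 17 alternative settings. Col1a2 and Col8a1 were called in 8, Col4a1 in 10, Col4a2 in 11 and Col4a3 in 16.

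**Figure D3:**
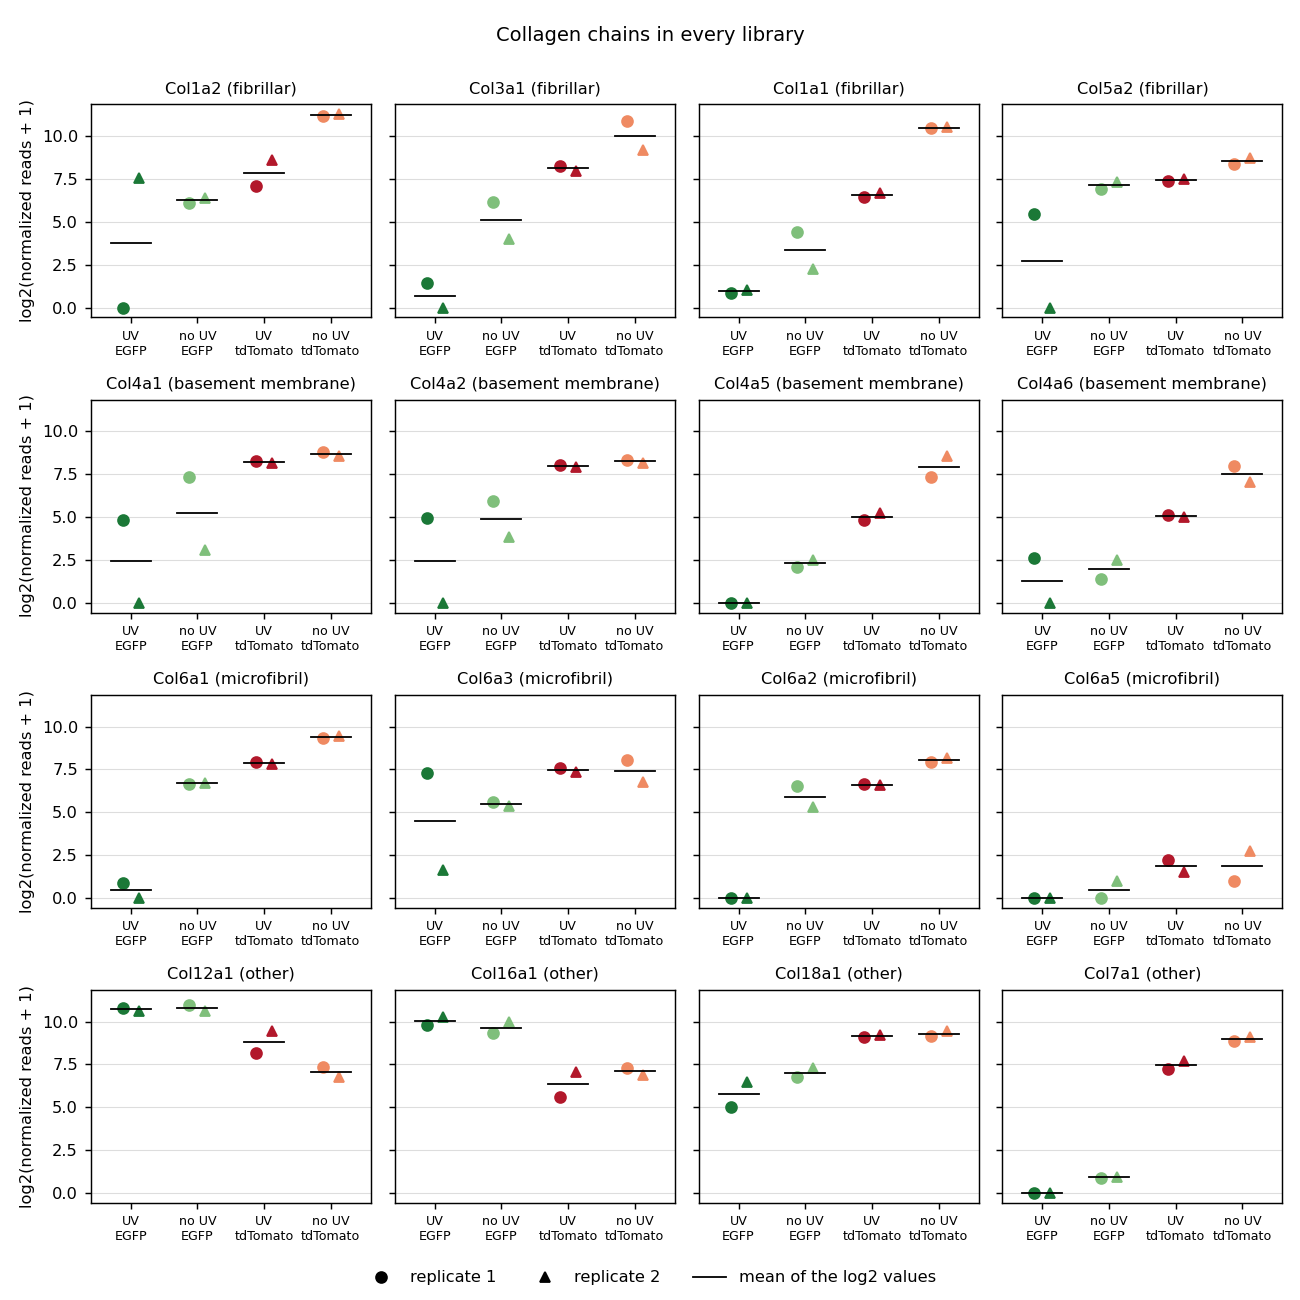
Normalized reads of 16 chains on the log2(value + 1) scale, with 1 point per library (circle for replicate 1, triangle for replicate 2) and a line at the mean of the log2 values of a group. Col12a1 and Col16a1 are high in all EGFP libraries, Col6a1 and Col6a2 are at 0 or near it in EGFP with UV, and Col1a1 is lower in tdTomato with UV than in tdTomato without UV.

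Promoter windows of 250 bases before the transcript start were in the RefSeq table for 34 of the 43 chains, 37 windows in all. Exonic bases lay in 17 of these windows, and Col1a1 and Col12a1 had no window. Below, counts are of chains and shares are of windows, so the units differ. CACGTG, the E-box letters bound by MITF among other factors, was in the windows of 0 of the 34 chains and in 6.02% of all 32851 windows of that length. CATGTG (or CACATG) was in those of 3 chains and in 12.3% of all windows, CCAAT (or ATTGG) in 12 and 33.8%, and TATAAA (or TTTATA) in 4 and 12.4%. None of the motifs searched contains another. A match is not a bound site, and its absence says only that the letters are not in the window.

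Without UV, 3 chains were higher and 10 lower in EGFP+ cells, where 6.67% and 12.5% of all genes tested were, and with UV 2 were higher and 13 lower, where 5.03% and 12.9% were. Libraries did not overlap for 23 chains lower and 6 higher without UV, beside 34.2% and 23.7% of all genes tested, and for 21 and 4 with UV, beside 33.7% and 18.9%. Col12a1 and Col16a1 were higher in both. With UV the Col12a1 call was lost without any 1 library other than tdTomato with UV replicate 2 (limma adjusted p up to 0.110), with only the libraries compared (0.170) and with no trend. Without UV the Col16a1 call was lost without any 1 of the 4 libraries compared (up to 0.134), and with UV it was lost with only the libraries compared (0.0890). Col12a1 was 13.3-fold higher in mean without UV (log2 difference 3.73 ± 0.42) and 3.44-fold with UV (1.91 ± 0.42). Col1a1, Col3a1, Col4a5, Col5a1, Col6a1, Col7a1, Col8a2, Col18a1 and Col23a1 were lower in both. With mouse as a block, Col8a2 was not called without UV. Col7a1 and Col23a1 were called lower in both comparisons in each of the 8 fits that left out 1 library. These counts moved when 1 library was left out: lower chains without UV were 6 without EGFP without UV replicate 1, 4 without its replicate 2 and 4 without tdTomato without UV replicate 2, and with UV they were 4 without tdTomato with UV replicate 1 and 6 without its replicate 2.

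In EGFP+ cells, Col6a1 was the chain called with UVB. It fell to 1 read in the EGFP libraries with UV, against 229 reads in those without, a ratio of 215-fold lower (95% exact interval 38.3 to 8543, counting error only), and limma gave -6.24 ± 0.63 (adjusted p = 0.0375). For comparison, 0.0166% of all genes tested were called lower and 0% higher. Col6a2 had 0 reads with UV and 149 without, at least 46.7-fold lower, and did not pass (-5.90 ± 0.83, limma adjusted p = 0.0790). Col3a1, with 2 reads against 101, was the next (47.5-fold lower, interval 12.8 to 397, limma adjusted p = 0.196). By edgeR and by DESeq2, 3 chains were called, Col3a1, Col6a1 and Col6a2, where 0.664% of all genes tested were called by edgeR and 1.96% by DESeq2.

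Without EGFP with UV replicate 1 the Col6a1 call held, but that fit rests on EGFP with UV replicate 2 alone, the library with the fewest genes detected. It therefore does not show that the call is stable. The call was lost without any 1 of the other 7 libraries. It was also lost with replicate number as a block (adjusted p = 0.0845), although those numbers belong to different mice. Libraries did not overlap for 19 chains lower and 0 higher with UV, where 20.7% and 12.7% of all genes tested were. In the same comparison 0 of 5 Schwann and glial markers were called, with 4 below 0 and 1 above. They summed to 11519.5 and 7957 normalized reads with UV and 10671 and 10287 without. Both of these markers at 0 with UV are named after their values were seen. The myelin gene Mbp had 0 reads with UV and 123 without, and the neurotrophin receptor gene Ngfr 0 and 32. Of 8 fibroblast markers 0 were called, with 4 below 0 and 3 above and a median of -0.68 log2 units, and they summed to 293 and 63.6 normalized reads with UV and 139 and 289 without. Of 4 leukocyte markers 0 were called and all 4 were below 0, and they summed to 47.8 and 4.31 with UV and 321 and 149 without. Of 6 mural markers 0 were called, with 4 below 0 and 0 above. They summed to 0.839 and 0 with UV and 4.99 and 41.8 without. The part of any such cells in the fall of Col6a1 was not tested.

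In EGFP+ cells Col12a1 and Col16a1 differed little with UVB. Means were 1681 ± 129 normalized reads with UV and 1777 ± 323 without for Col12a1, and 1054 ± 243 with UV and 824 ± 269 without for Col16a1 (SD, n = 2 each). The groups overlapped for both (limma adjusted p = 1.00 and 0.868).

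In tdTomato+ cells, summed fibrillar chains were 911 ± 164 normalized reads with UV and 5848 ± 717 without, 6.42-fold lower with UV (SD, n = 2 each). Basement membrane chains were at 643 ± 18.7 and 1243 ± 20.5, and microfibril chains at 509 ± 34.8 and 1133 ± 35.7, with no overlap in any of the 3 classes. The fibrillar share of the per-kb collagen sum was 23.8% and 27.0% in tdTomato with UV, against 59.9% and 53.6% in tdTomato without UV. Col1a2 and Col1a1 ranked first and second per kb without UV, and Col18a1 and Col6a1 with UV, where Col1a1 ranked 14.

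No single chain passed by limma in that comparison: 0 of 42 were called, 7 had an unadjusted p under 0.05, beside 2429 of all 18070 genes tested, and 0.559% of all genes tested were called, 0.349% higher and 0.21% lower. By edgeR 2 chains were called, Col1a1 lower and Col12a1 higher, and by DESeq2 5, with Col4a5, Col6a1 and Col14a1 lower as well, where 1.33% and 3.41% of all genes tested were called. Libraries did not overlap for 22 chains lower and 2 higher with UV, beside 24.5% and 21.6% of all genes tested. Col1a1 was 15.2-fold lower in mean (log2 difference -3.91 ± 0.91, limma adjusted p = 0.119, edgeR adjusted p = 0.00122), Col1a2 9.01-fold (-3.36 ± 1.92, limma adjusted p = 0.515) and Col3a1 4.40-fold (-1.92 ± 0.97, limma adjusted p = 0.450).

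Chains of basement membranes and of the anchoring fibril are given next. Col7a1 was 2.86-fold lower in mean with UV (-1.52 ± 0.91, limma adjusted p = 0.537), Col4a1 was 1.38-fold and Col4a2 1.22-fold lower, and Col18a1 was 1.10-fold lower with overlapping libraries. Col4a5 stood lower by 8.38-fold (-2.92 ± 1.01, limma adjusted p = 0.265). Its partner Col4a6 had 33.9 and 31.5 normalized reads with UV and 253 and 131 without, and did not pass. Over the same libraries the fibroblast markers summed to 10192 and 13366 normalized reads with UV and 13861 and 11635 without. Of the 8, 0 were called, with 3 below 0 and 5 above and a median of 0.55 log2 units. Without overlap, 4 stood higher and 1 lower with UV, beside 21.6% and 24.5% of all genes tested. Dcn, the largest part of each sum, had 7252 and 9350 with UV and 7967 and 8617 without. Of 5 endothelial markers 0 were called and all 5 were above 0. They summed to 727 and 89.0 normalized reads with UV and 186 and 31.4 without. The part of such cells in the collagen values was not tested.

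The 2 chains that stood higher without overlap in tdTomato+ cells with UV were Col12a1 and the low Col28a1. Col12a1 was higher by 3.65-fold in mean (1.75 ± 0.42, limma adjusted p = 0.129, edgeR adjusted p = 0.0203, and 0.0375 under quantile normalization with limma). Melanocyte markers moved the same way: 3 of 5 rose in tdTomato with UV by limma, Mlana, Dct and Pmel, where 0.349% of all genes tested were higher. The 5 summed to 16689 and 30742 normalized reads with UV against 4585 and 2329 without. Col16a1, the other chain that was high in EGFP+ cells, was not higher, at 48.6 and 134 normalized reads with UV against 156 and 118 without. The part of melanocyte RNA in the Col12a1 values was not tested. Of 5 keratinocyte markers, 2 were lower in tdTomato with UV, Krt1 and Krt10 (limma adjusted p = 0.0133 and 0.0101), where 0.21% of all genes tested were lower. Of the rest, 2 more were below 0 and 1 was above, and the 5 summed to 208175 and 194664 normalized reads with UV and 216786 and 289129 without.

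**Figure D4:**
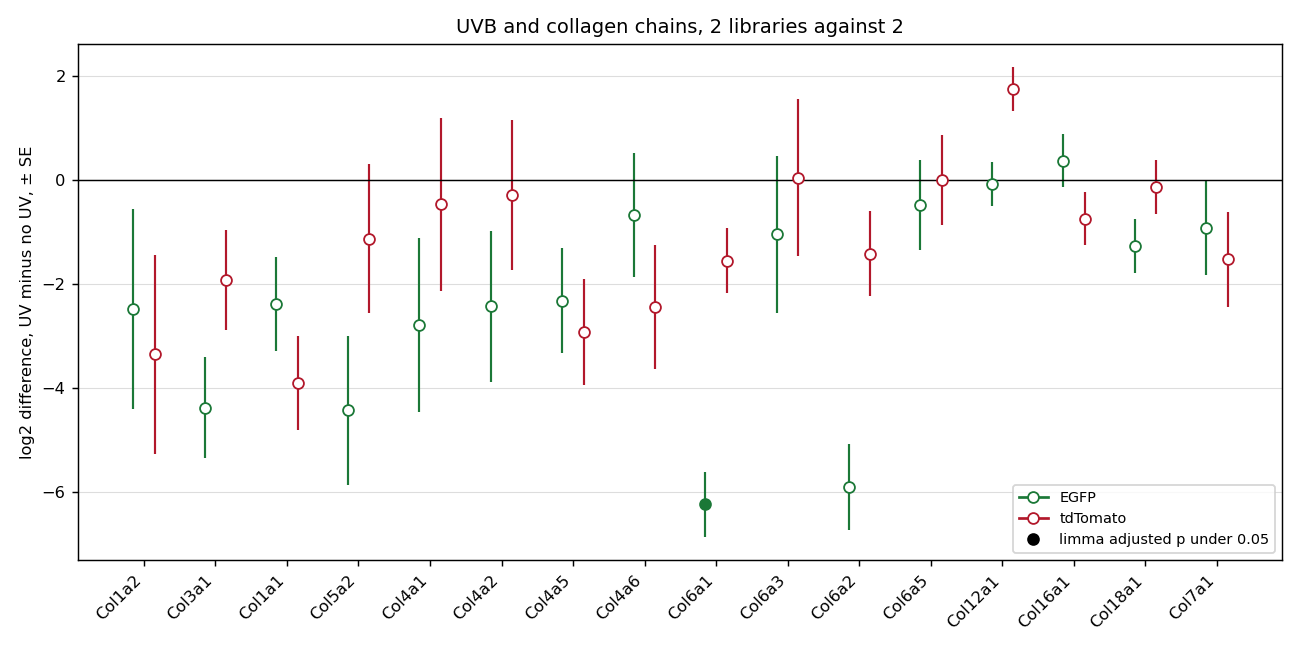
Log2 difference between libraries with and without UV (2 against 2, mean ± SE from limma) for 16 chains, in EGFP+ cells (green) and tdTomato+ cells (red), with filled points at adjusted p under 0.05. Col6a1 in EGFP+ cells, at -6.24, is the filled point, and Col12a1 in tdTomato+ cells, at 1.75, is the point highest above 0.

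The difference between the UV changes, EGFP minus tdTomato, was tested as an interaction. By limma 0 chains were called and 5 had an unadjusted p under 0.05, beside 1814 of all 18070 genes tested, where 0.00553% of all genes tested were called. Col6a1 came nearest, at -4.69 ± 0.89 (limma adjusted p = 0.206, edgeR adjusted p = 0.0139), followed by Col6a2 at -4.49 ± 1.17 (limma adjusted p = 0.308) and Col12a1 at -1.82 ± 0.59 (limma adjusted p = 0.387). By edgeR 1 chain was called, Col6a1, and by DESeq2 2, Col6a1 and Col6a2, where 0.415% and 1.58% of all genes tested were called. A call in one sort and not in the other is therefore not shown to be a difference between them by the limma test.

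Genes that modify, fold, process and cross-link procollagen split in both directions in EGFP+ against tdTomato+ cells. Of 34 tested, 6 were higher and 9 lower, with a median of -0.71 log2 units, where 9.66% and 19.2% of all genes tested were called and their median was -0.33. The higher ones include Pcolce2, an enhancer of procollagen C-proteinase, at 4044 ± 277 normalized reads in EGFP+ cells and 277 ± 134 in tdTomato+ cells (SD, n = 4 each, limma adjusted p = 0.000161). Plod1 and Plod2 (lysyl hydroxylases), P3h1 (prolyl 3-hydroxylase), Fkbp14 (a prolyl isomerase) and Colgalt1 (collagen galactosyltransferase) were the other higher members. Loxl2, a lysyl oxidase that cross-links collagen, was lower at 354 ± 112 in EGFP+ cells and 1412 ± 193 in tdTomato+ cells (limma adjusted p = 0.000429).

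Among the lower members, Pcolce, the paralog of Pcolce2, had 34.9 ± 23.2 normalized reads in EGFP+ cells and 476 ± 129 in tdTomato+ cells (SD, n = 4 each, limma adjusted p = 0.00244), and Adamts2, the procollagen N-proteinase, 1.58 ± 1.63 and 95.7 ± 80.6 (adjusted p = 0.00174). Lox, Loxl1, Creb3l1, P3h4, P4ha3 and Tll1 were lower too. Of 9 tested collagen receptors and uptake genes, 1 was higher and 6 lower, against the same 9.66% and 19.2% of all genes tested. Itgb1, the common β subunit of the collagen-binding integrins, was higher at 5248 ± 983 in EGFP+ cells and 3368 ± 697 in tdTomato+ cells (limma adjusted p = 0.00557). Ddr2, the discoidin receptor of fibrillar collagen, and Mrc2, which takes up collagen fragments, were lower (limma adjusted p = 0.00419 and 0.00220). In both UV comparisons 0 genes of either list were called by limma, with 5 and 5 of the 34 and 2 and 2 of the 9 at an unadjusted p under 0.05 in EGFP+ and in tdTomato+ cells. Over all 18070 genes tested, 1875 and 2429 were under that p, and 0.0166% and 0.559% were called.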

How the data were processed

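RNA of 8 libraries was sequenced from a TruSeq RNA v2 preparation of 1 µg input, per the labels' protocols. The submitters' processing notes name FastQC, TopHat2 2.0.12, Cufflinks 2.2.1, DESeq2 1.14.1 and mm10; for the read counter and the gene annotation, nothing is given in the sources used. The deposited signal values are reads per gene divided by a size factor of each library (0.701 to 1.20), per the file headers and the values: all 195368 values gave whole reads within 0.01. The planned edgeR test for counts gave way to limma 3.58.1 (R 4.3.3) on log2(value + 1), since the deposited values were normalized. The model held 4 group means with 4 residual degrees of freedom, trended moderation and Benjamini-Hochberg adjustment over 18070 genes with a group mean of at least 1, called at adjusted p under 0.05. A fold on that scale understates the change of low genes.

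The deposited table also holds the authors' log2 fold changes, p-values and scores, which were not used. Results were recomputed with a pseudocount of 0.1, after quantile normalization, after rescaling that left out the top 20 genes, unfiltered, with a filter of 5 in 2 libraries, no trend, blocks, leaving out each library, and edgeR 4.0.16 and DESeq2 1.42.0 on the recovered reads. The steps were tested on simulated data.

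The labels tie the EGFP+ and tdTomato+ libraries of a mouse, so mouse pairs them; their deviations correlated at 0.0873 (mice 1 and 2) and 0.0562 (mice 3 and 4). Genes named were the 4 marker chains, the 4 highest chains of each class, chains called higher in EGFP+ cells or called with UV, or else those with the smallest p there. All members and lists were chosen with earlier results of these data known. Levels per kb use the longest APPRIS principal transcript of GENCODE vM21 (GRCm38), which matched all 43 chains, and 13 share exon bases with another gene, up to 6.07% of their exons. Ratios with 3 or fewer reads in a group carry 95% exact intervals, and a group at 0 was set to 3 reads. A result that needs an item withheld for evaluation is not reported here.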

Additional observations from a re-analysis of the deposited data

Results flagged for a closer look

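Among the 32 sets of 4 libraries checked, 2 were flagged for a library far from the rest. The Dixon rate of about 1 in 20 assumes 4 libraries of 1 kind. Each set mixed libraries with and without UV, so that rate is not the chance rate here. Col1a1 in EGFP libraries had 20.8 normalized reads in EGFP without UV replicate 1, and the nearest other EGFP library had 3.80 (gap over range 0.851, above the Dixon critical value for 4 libraries). Col6a5 in EGFP libraries had 0.951 normalized reads, a single read, in EGFP without UV replicate 2, and the other 3 libraries were at 0. Such a set has a gap over range of 1 whatever the size of the value, so this flag carries no weight.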

How the results depend on the processing

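With mouse as a replicate block, 5221 genes were called over all mice in place of 5217, 3288 in place of 3468 without UV and 3190 in place of 3240 with UV; 3 chains were higher in place of 2 over all mice. Replicate numbers of UV and mock mice name different mice (correlations 0.0549 and 0.0759), and that block gave 2 genes in EGFP+ cells in place of 3, with 0 chains in place of 1, and 70 in tdTomato+ cells in place of 101. Leaving out 1 library at a time gave 3448 to 6402 genes over all mice (2 to 4 chains higher), 1370 to 4300 without UV (4 to 15 chains lower), 958 to 4737 with UV (4 to 16 lower, 1 to 2 higher), 0 to 1460 for UV in EGFP+ cells (0 to 6 chains), 0 to 1226 for UV in tdTomato+ cells (0 to 2 chains) and 0 to 779 for the difference (0 to 3 chains). Quantile normalization gave 4 chains higher over all mice, 16 genes for UV in EGFP+ cells, 218 in tdTomato+ cells with 1 chain, and 14 for the difference; rescaling gave 4 chains higher and 2 genes for the difference. A pseudocount of 0.1 gave 5 chains lower without UV, 1 gene and 0 chains for UV in EGFP+ cells, 29 genes in tdTomato+ cells and 0 for the difference. With only the libraries compared, 1074 genes, 5 chains lower and 0 higher were called with UV, and 0 genes in both UV comparisons. With no trend 1 chain was higher with UV, 24 genes and 2 chains were called for UV in EGFP+ cells and 0 genes for the difference, as with no filter. By edgeR and DESeq2, UV gave 120 and 355 genes with 3 chains each in EGFP+ cells, 240 and 617 with 2 and 5 chains in tdTomato+ cells, and 75 and 286 with 1 and 2 chains for the difference. Without the largest chain of each class, log2 ratios for UV in tdTomato+ cells were -2.41 in place of -2.68 (fibrillar), -1.28 in place of -0.95 (basement membrane), -0.71 in place of -1.16 (microfibril) and -0.71 in place of -0.29 (other, -0.56 to -0.058 with 1 library left out); over all mice the other class reversed to -0.40 from 0.67, and was 0.93 after rescaling. The cause was not tested. Of 339 alternative values of single chains over all mice, 300 kept their side of the threshold, 22 lost a call and 17 gained one, and in 0 did the sign of a called value change.

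With 2 mice a group, the UV comparisons of single chains rest on a spread shared across groups, and chains with few reads in EGFP+ cells carry counting error as large as their values.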

Other observations

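Chains of low level, named after their values were seen, followed other patterns. Col9a1, a FACIT chain of cartilage, had 6.65 and 3.80 normalized reads in EGFP without UV and 0 in the 6 other libraries, 12 reads in all. Without UV it was at least 3.06-fold higher in EGFP+ than in tdTomato+ cells (limma adjusted p = 0.0237). That call was lost with mouse as a block, with only the libraries compared, by edgeR and by DESeq2. Col25a1, a transmembrane collagen, had 0.839 and 0 normalized reads in EGFP with UV and 64.0 and 44.7 in EGFP without UV, and the difference did not pass (limma adjusted p = 0.348). Col14a1, a FACIT chain of dermal fibrils, had 0 and 2.78 normalized reads in tdTomato with UV and 147 and 19.98 in tdTomato without UV, and did not pass (limma adjusted p = 0.231). All 23 reads of Col19a1 came from tdTomato without UV replicate 2.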
